A study of Mus musculus with 15 samples.

Results

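The genes described here are 41 interferon-stimulated effector genes of the mouse, measured by bulk RNA-seq while fibroblasts were converted toward muscle progenitors. They were taken as a named list ordered by family, from 35675 genes in the table. The rule uses gene names alone, but the list was drawn up with earlier results of these data known. The families are Ifit (4 genes), Oas (5), Mx (2), Gbp/Irg (7), Ifitm (3) and Parp (3, with the Parp9 partner Dtx3l), together with the ISG15 system (4), antiviral enzymes and membrane proteins (4) and other effectors (9). All 41 were found in the annotation of mouse genome build GRCm38. The unit of a level is CPM, the count of a gene relative to the TMM-scaled size of its library, and as TPM, which also divides by transcript length and is used wherever different genes are compared.

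The 15 libraries come from primary mouse embryonic fibroblasts (MEFs) with the genotype Tg:Pax7-nGFP/C57BL6;DBA2, in which a green reporter follows the muscle stem cell gene Pax7. Fibroblasts of 3 lines, each from a separate embryo, were carried through each of 5 conditions, and replicate numbers stand for these lines. The first condition, +MyoD+F/R/C+CP, joined MyoD mRNA and F/R/C with CP690550 (CP), an inhibitor of the Janus kinases (JAK), and the second, +MyoD+F/R/C+SP, replaced CP by SP600125 (SP), an inhibitor of the JNK kinases. The third, +MyoD+F/R/C, had neither inhibitor, where F/R/C stands for forskolin, RepSox and CHIR99210. The fourth, +MyoD, received the mRNA alone, and the fifth is the starting MEFs, kept in the same progenitor medium without mRNA or small molecules. MyoD was supplied as synthetic mRNA with modified nucleotides in 4 transfections, and cultures are labelled day 10. All 4 transfected conditions received B18R, a viral protein that captures type I interferon, which the study's protocol keeps in the medium during the transfections and for a short time after the last. B18R is not given for MEFs. For MEFs the labels and the study's text name different days, so that time in culture and treatment cannot be told apart in comparisons with MEFs. Nothing in the deposited data measures interferon protein.

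Cells answer interferon through a short chain. Receptors at the cell surface activate Janus kinases, these phosphorylate STAT proteins, and complexes of STAT proteins with IRF9 enter the nucleus and bind a short promoter element, the ISRE, while pairs of STAT proteins alone bind a second element, the GAS. The genes switched on in this way encode the effectors described here: proteins that bind or cut foreign RNA, block viral entry or release, modify other proteins, or attack microbes held in vacuoles, and fibroblasts are a classical cell type for the study of this response.

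Promoters of interferon-stimulated genes are known for both kinds of element, and their letters were looked for in the members. RefSeq promoter windows on GRCm38.p6, which run from 250 bases before to 50 after a gene's start, matched 31 of the 41 members. Each window was searched on both strands for GAAANNGAAA, here called ISRE-type, and for TTCNNNGAA, here called GAS-type, and matches of either kind may overlap. The ISRE-type letters occurred in the windows of 16 of 31 members, where 3.99% of 27025 genes and 3.44% of 32851 windows held them. The GAS-type letters occurred in 8 of 31, against 9.55% of genes and 8.3% of windows. Both kinds occurred in 6 of the 31 and neither in 13. The stretches below carry the matches of 8 members to which the results return. They are written 5′ to 3′ on the strand of the gene, with matched bases in capitals, and a match on the opposite strand reads TTTCNNTTTC. A match is a description of the letters and was not tested as a binding site.
Isg15: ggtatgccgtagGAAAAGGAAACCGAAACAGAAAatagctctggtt
Bst2: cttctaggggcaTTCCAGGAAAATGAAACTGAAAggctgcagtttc
Irgm1: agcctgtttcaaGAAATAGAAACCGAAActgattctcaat
Ifit1: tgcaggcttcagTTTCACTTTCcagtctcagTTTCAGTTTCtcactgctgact
Ifit3: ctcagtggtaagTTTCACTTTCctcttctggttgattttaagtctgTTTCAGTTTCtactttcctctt
Ifit3b: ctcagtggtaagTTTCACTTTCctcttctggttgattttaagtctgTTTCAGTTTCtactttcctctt
Igtp: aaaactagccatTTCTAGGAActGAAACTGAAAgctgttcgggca
Irgm2: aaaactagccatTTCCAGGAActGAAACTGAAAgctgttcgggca

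The Isg15 stretch lies at chr4:156200863-156200908 on the minus strand and holds 3 ISRE-type matches that overlap end to end, at -78, -72 and -66 from the start. Bst2 (chr8:71537575-71537620, minus) and Irgm1 (chr11:48871423-48871462, minus) hold 2 overlapping matches each, and in Bst2 a GAS-type match runs into the first. Ifit1 (chr19:34640773-34640825, plus) has 2 separate matches on the opposite strand. Ifit3 (chr19:34583361-34583428, plus) and Ifit3b (chr19:34607757-34607824, plus) are identical over the printed bases. Igtp (chr11:58199499-58199543, plus) and Irgm2 (chr11:58214890-58214934, plus) share a nearly identical stretch in which a GAS-type match starts 11 bases before an ISRE-type match. Of the 14 members called lower with CP than with SP below, 10 had a window and 4 of these held ISRE-type letters, against 11 of 20 windows among tested members that were not called.

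Across the 15 libraries the members were highest with SP and, for most genes, lowest in MEFs. The mean CPM was highest with SP for 38 of 41 members and highest with +MyoD+F/R/C for the other 3, Ifitm1, Ifitm2 and Igtp. It was lowest in MEFs for 31 members, with CP for 7 and with +MyoD for 3. The order CP below +MyoD+F/R/C below SP held for 38 of 41 group means. In bulk RNA, fewer cells that express a gene and less RNA per cell cannot be told apart.

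The family is unequal in abundance, and a pair of genes carries most of its RNA. Over all libraries Ifitm3 averaged 859 TPM and Ifitm2 809 TPM, followed by Ifitm1 at 101 TPM, Lgals3bp at 95.7 TPM and Ifi27 at 66.4 TPM. At the low end Mx1 averaged 0.512 TPM, Epsti1 0.475 TPM, Oas1a 0.334 TPM, Oas2 0.0953 TPM and Oas3 0.0427 TPM. The summed TPM of the 39 members other than Ifitm2 and Ifitm3 was 305, 376 and 349 with CP and 1255, 1072 and 960 with SP in lines 1, 2 and 3. In +MyoD+F/R/C the same sum was 637, 728 and 728, in +MyoD 143, 364 and 542, and in MEFs 97.4, 73.1 and 69. No sum with CP reached one with SP or with +MyoD+F/R/C, whereas the +MyoD sums spread widely and overlapped those with CP.

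Library totals lay between 29393872 and 41885769 estimated counts, so that 3 counts were worth 0.0656 to 0.0950 CPM. The libraries of +MyoD varied most, with a biological coefficient of variation of 0.488 when fitted alone, against 0.295 with CP, 0.354 with SP, 0.344 with +MyoD+F/R/C and 0.214 in MEFs. Within +MyoD, line 1 was the lowest library for 34 of 41 members and line 3 the highest for 27. Within SP, line 1 was the highest for 35 members, and for 34 members it was the highest of all 15 libraries. Summed fibroblast markers (8 genes) were detected in every group, at 20262 to 23019 CPM with CP, 14285 to 18264 CPM with SP, 14628 to 23400 CPM with +MyoD+F/R/C, 13646 to 44911 CPM with +MyoD and 3635 to 4928 CPM in MEFs. Skeletal muscle markers (8 genes) summed to 5381 to 9861 CPM in the F/R/C conditions, 1890 to 2247 CPM with +MyoD and 67.4 to 91.7 CPM in MEFs.

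**Figure D1:**
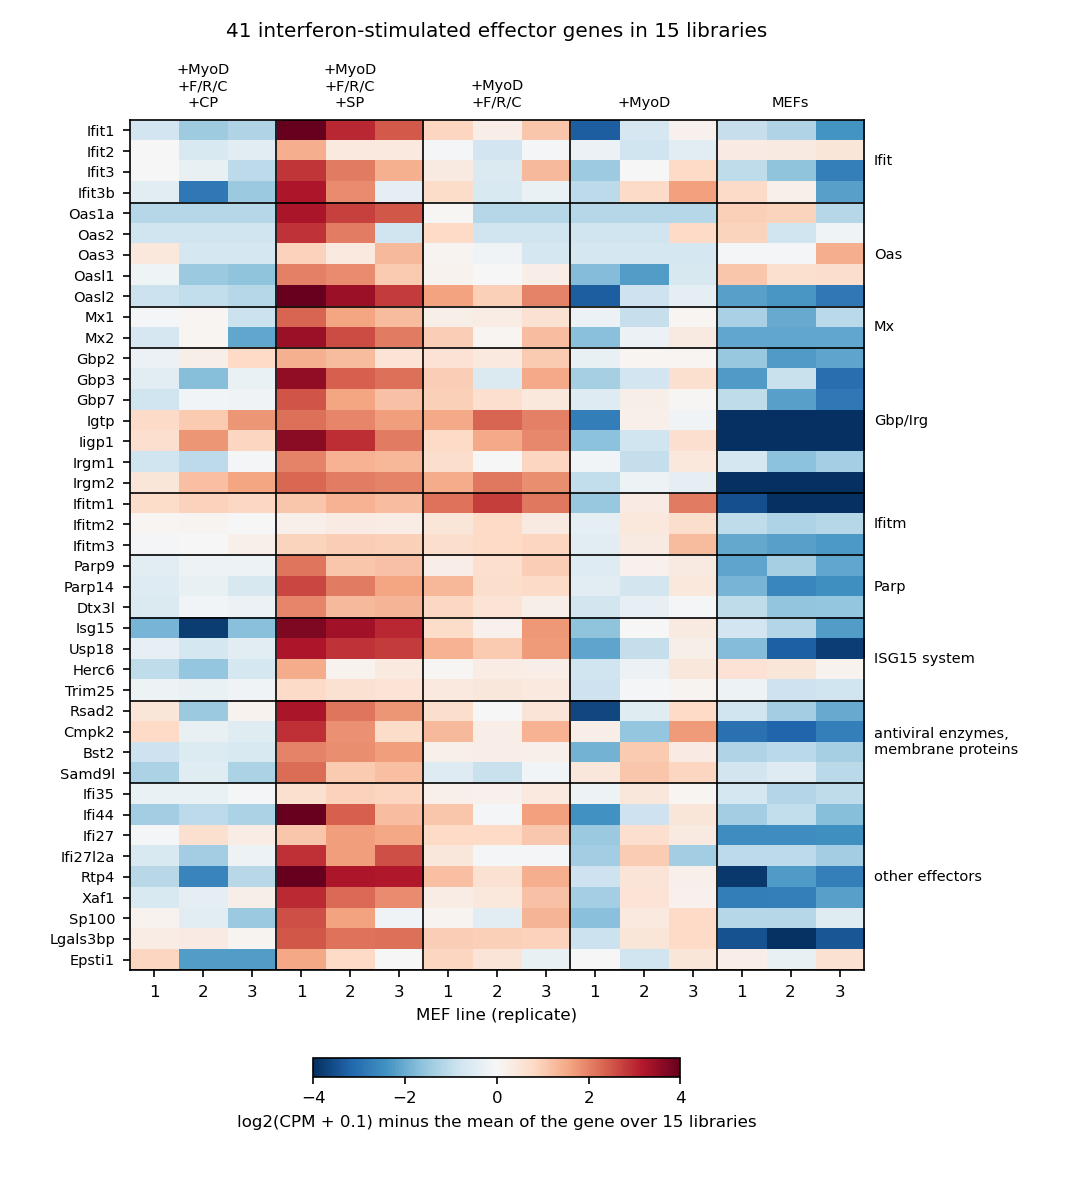
Each row is 1 of the 41 members, grouped by family, and each column is 1 library, grouped by condition with the MEF line below it. Colour gives log2(CPM + 0.1) minus the mean of that gene over 15 libraries; SP libraries are the warmest for most rows, and MEFs the coldest for 31 of 41 by group mean.

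The comparisons were tested in 1 edgeR quasi-likelihood fit of all 15 libraries, and calls needed both an adjusted p (Benjamini-Hochberg, over 19331 tested genes) of at most 0.05 and a log2 fold change over 0.5 in size. Of the 41 members, 39 passed the filter on low counts. Oas2 and Oas3 did not. Oas1a passed with at least 10 counts in 3 SP and 2 MEFs libraries and Ifi27l2a in 3 SP, 1 +MyoD+F/R/C and 1 +MyoD library, so these genes entered the test mainly through the libraries in which they were high, and counts below are over tested members only. Comparisons that share a condition share its 3 libraries, and their counts are not independent of each other.

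MyoD mRNA alone was compared with untreated MEFs. With +MyoD, 24 tested members were called higher and 3 lower than in MEFs, where 22.8% of all tested genes were called higher and 18% lower. The median log2 fold change was 1.71 over the members and 0.12 over all tested genes. The 3 +MyoD libraries lay above all 3 MEFs libraries for 20 members (26.6% of all genes) and below them for 2 (24.7%). Left-out libraries moved the higher calls between 20, without the +MyoD library of line 3, and 29, without that of line 1. The lower calls went to 1 without the +MyoD library of line 2.

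With +MyoD+F/R/C the same set stood further above MEFs, with 29 tested members called higher and 0 lower (26.6% and 21.6% of all genes in the edgeR fit), and 1 member was lower at an unadjusted p under 0.05. The median log2 fold change was 2.59, against 0.19 over all genes. The groups were apart upward for 32 members (34.3% of all genes) and downward for 2 (29.5%). Against +MyoD, +MyoD+F/R/C had 9 members called higher and 1 lower (10.9% and 8.39% of all genes), with a median of 0.75 against 0.03. The 3 +MyoD+F/R/C libraries lay above all +MyoD libraries for 17 members (18.1% of all genes) and below them for 1 (15.4%). The higher calls moved with the uneven +MyoD libraries, to 14 without line 3 of +MyoD, 4 without line 1 of +MyoD and 5 without line 1 of +MyoD+F/R/C.

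**Figure D2:**
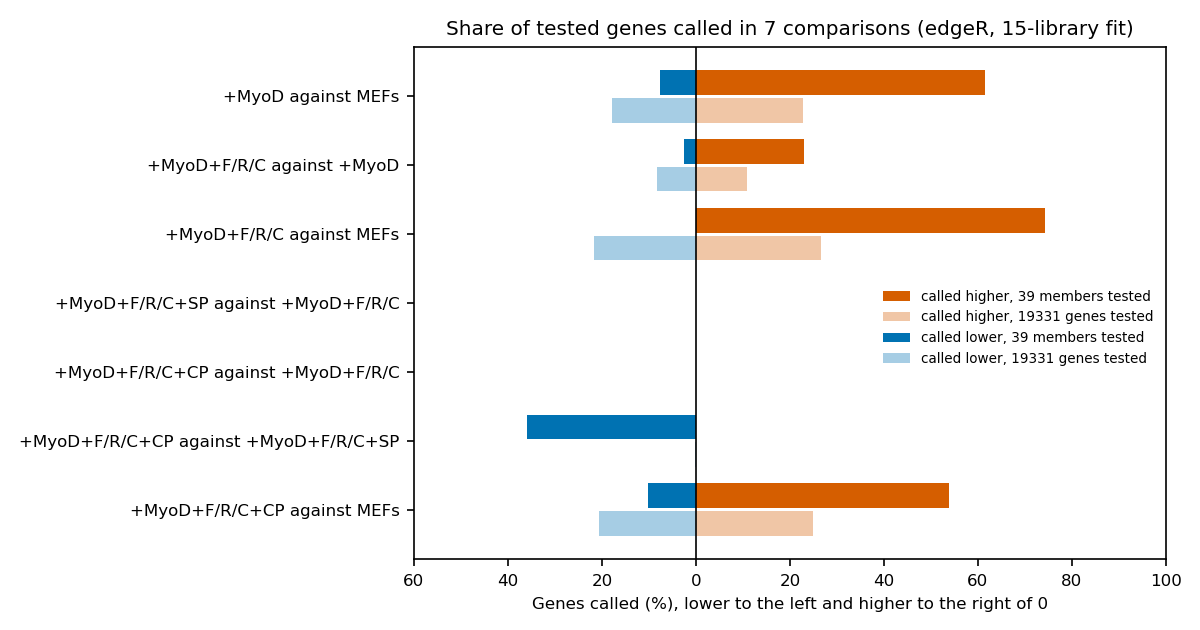
The horizontal axis is the percentage of genes called in each of 7 comparisons, lower to the left of 0 and higher to the right, with dark bars for the 39 tested members and pale bars for 19331 tested genes. With CP against SP, 14 members were called lower while the bar for all genes, 0.197%, is too short to see.

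The Ifit genes encode proteins that bind foreign RNA and hold back its translation, and they split in direction between +MyoD and MEFs. Ifit1 measured 1.91, 1.18 and 1.39 CPM with CP and 55.2, 27.9 and 19.0 CPM with SP in lines 1, 2 and 3. It measured 6.14, 4.06 and 7.42 CPM with +MyoD+F/R/C, 0.251, 2.07 and 3.83 CPM with +MyoD and 1.72, 1.39 and 0.556 CPM in MEFs. The SP libraries stood above all others, and the CP libraries lay within the span of MEFs and +MyoD. Ifit1 rose with +MyoD+F/R/C relative to MEFs (edgeR, log2 fold change 2.26, SE 0.65, adjusted p = 0.0086) and fell with CP relative to SP (log2 fold change -4.50, SE 0.70, adjusted p = 0.011), a call it kept in 20 of 24 alternative settings. With CP against MEFs its log2 fold change was 0.29, with a 95% interval of -1.10 to 1.68.

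Ifit2 was lower with +MyoD than in MEFs. It measured 15.3, 10.0 and 11.5 CPM with CP, 41.9, 20.3 and 20.2 CPM with SP, 14.4, 9.06 and 14.6 CPM with +MyoD+F/R/C, 13.1, 8.90 and 11.5 CPM with +MyoD and 19.4, 19.6 and 21.4 CPM in MEFs. All 3 +MyoD libraries were below all 3 MEFs libraries, and the call was lower with +MyoD (edgeR, log2 fold change -0.85, SE 0.28, adjusted p = 0.022) and with CP (log2 fold change -0.72, adjusted p = 0.046) than in MEFs. With +MyoD+F/R/C against MEFs the log2 fold change of Ifit2 was -0.67 (adjusted p = 0.059), which became a lower call with the MEF line as a block (-0.71, adjusted p = 0.011, in a range of 0.011 to 0.22 over its alternatives). Ifit3, which in human cells steadies IFIT1 on RNA, rose with +MyoD relative to MEFs (log2 fold change 1.74, SE 0.63, adjusted p = 0.034 in edgeR). Its levels were 1.35, 3.81 and 6.82 CPM with +MyoD and 1.86, 1.22 and 0.497 CPM in MEFs, so line 1 did not share the direction. Ifit3b was not called in any comparison, and kallisto had to divide its reads with Ifit3.

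The Oas group holds synthetases of oligoadenylate, the messenger that activates the RNA-cutting enzyme RNase L, and the related Oas-like proteins. The synthetases were near the limit of detection. Oas1a had 0 counts in all 3 CP libraries, 177 pooled counts with SP, 5 with +MyoD+F/R/C, 0 with +MyoD and 23 in MEFs. Taking 3 pooled counts as the most a count of 0 allows, Oas1a was at least 57.5-fold lower with CP than with SP and at least 7.27-fold lower with +MyoD than in MEFs. The MEFs counts were 12, 11 and 0 in lines 1, 2 and 3, so line 3 of MEFs did not differ from +MyoD or CP. The edgeR call was lower for +MyoD (adjusted p = 0.039) and for CP (adjusted p = 0.031) against MEFs, and no call was made for CP against SP (adjusted p = 0.34). Oas2 had 0 pooled counts with CP, 73 with SP (46, 27 and 0 in lines 1, 2 and 3), 8 with +MyoD+F/R/C, 7 with +MyoD and 10 in MEFs. The pooled counts made it at least 23.7-fold lower with CP than with SP, without a test, although line 3 had 0 counts with both. Oas3 had 5, 23, 5, 0 and 16 pooled counts with CP, SP, +MyoD+F/R/C, +MyoD and in MEFs.

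The Oas-like genes were better covered and moved apart in the comparisons with MEFs. Among the F/R/C conditions the means of both were lowest with CP and highest with SP. Oasl2 measured 1.79, 1.66 and 1.46 CPM with CP and 58.7, 37.7 and 23.8 CPM with SP. It measured 10.5, 6.54 and 13.7 CPM with +MyoD+F/R/C, 0.251, 1.83 and 2.55 CPM with +MyoD and 0.667, 0.595 and 0.381 CPM in MEFs. The groups with SP, +MyoD+F/R/C and CP did not overlap each other, and line 1 of +MyoD lay below every MEFs library. Oasl2 rose with +MyoD+F/R/C relative to +MyoD (edgeR, log2 fold change 2.72, SE 0.54, adjusted p = 0.0020) and relative to MEFs (4.21, SE 0.60, adjusted p = 2.5e-05). It fell with CP relative to SP (log2 fold change -4.61, SE 0.58, adjusted p = 0.0021), and this call held in 24 of 24 alternative settings. Its call for +MyoD against MEFs (1.49, adjusted p = 0.049) was lost with the line as a block (adjusted p = 0.069, in a range of 0.00093 to 0.42 over its alternatives). By TPM, 54.1 to 58.3% of the gene's signal with SP was assigned to Oasl2-205, a transcript annotated for nonsense-mediated decay.

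Oasl1, which in mice holds back translation of the interferon regulator Irf7, measured 0.944, 0.316 and 0.285 CPM with CP, 4.64, 4.21 and 2.33 CPM with SP, 1.19, 1.06 and 1.31 CPM with +MyoD+F/R/C, 0.251, 0.145 and 0.653 CPM with +MyoD and 2.42, 1.73 and 1.81 CPM in MEFs. MEFs stood above +MyoD and above CP with no overlap. Oasl1 fell with +MyoD (edgeR, log2 fold change -2.50, SE 0.59, adjusted p = 0.0029) and with CP (-1.93, SE 0.57, adjusted p = 0.011) relative to MEFs, and rose with +MyoD+F/R/C relative to +MyoD (1.76, SE 0.59, adjusted p = 0.043).

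The Mx genes encode dynamin-like GTPases that trap viral particles, and both were scarce. Mx2, annotated as a polymorphic pseudogene in the mouse reference, had 20 pooled counts with CP, 336 with SP, 83 with +MyoD+F/R/C, 25 with +MyoD and 0 in MEFs. It was therefore at least 6.28-fold higher with CP, 23.4-fold higher with +MyoD+F/R/C and 8.79-fold higher with +MyoD than in MEFs, and all 3 comparisons were called higher by edgeR (adjusted p = 0.014, 0.0015 and 0.0087). Mx1 measured 0.401, 0.447 and 0.190 CPM with CP, 2.50, 1.45 and 1.15 CPM with SP, 0.518, 0.545 and 0.700 CPM with +MyoD+F/R/C, 0.345, 0.175 and 0.445 CPM with +MyoD and 0.111, 0.0283 and 0.146 CPM in MEFs. It rose with +MyoD+F/R/C relative to MEFs (edgeR, log2 fold change 2.59, SE 0.72, adjusted p = 0.0070). Its call with CP against MEFs (1.83, adjusted p = 0.045) was lost with the line as a block (adjusted p = 0.053, in a range of 0.031 to 0.16).

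The Gbp/Irg family holds GTPases that gather on vacuoles with microbes and are strongly driven by interferon gamma in mouse cells. Nearly all of its members were higher with +MyoD than in MEFs. Of its 7 members, 6 rose with +MyoD relative to MEFs, where 22.8% of all tested genes were called higher. With +MyoD+F/R/C, 3 were called higher than with +MyoD (10.9% of all genes) and 7 higher than in MEFs (26.6%). Only 1, Irgm1, was lower with CP than with SP (0.197%). Irgm2, a regulator of the effector Irg proteins, measured 9.74, 16.2 and 20.8 CPM with CP, 34.1, 29.0 and 27.8 CPM with SP, 19.6, 29.9 and 25.2 CPM with +MyoD+F/R/C, 3.45, 6.02 and 5.25 CPM with +MyoD and 0.278, 0.255 and 0.117 CPM in MEFs. Each of the steps MEFs, +MyoD and +MyoD+F/R/C was separate from the next. It rose with +MyoD (edgeR, log2 fold change 4.47, SE 0.38, adjusted p = 2.7e-07) and with CP (6.14, SE 0.39, adjusted p = 9.3e-09) relative to MEFs, and with +MyoD+F/R/C relative to +MyoD (2.34, SE 0.29, adjusted p = 5.4e-05).

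With CP against SP, the log2 fold change of Irgm2 was -0.96, with a 95% interval of -1.56 to -0.37 and no call (adjusted p = 0.61). Igtp, also known as Irgm3, measured 6.46, 7.92 and 13.0 CPM with CP, 17.6, 14.8 and 12.3 CPM with SP, 11, 19.3 and 15.5 CPM with +MyoD+F/R/C, 0.470, 4.34 and 3.44 CPM with +MyoD and 0.111, 0.113 and 0.117 CPM in MEFs. Its CP and SP libraries overlapped, at a log2 fold change of -0.71 (95% interval -1.76 to 0.33). Igtp and Irgm2 overlap on the same strand of chromosome 11, so reads in the shared part could be given to either.

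Irgm1, needed for autophagy of vacuolar bacteria in mice, measured 6.68, 5.63 and 11.4 CPM with CP, 46.9, 31.1 and 29.8 CPM with SP, 19.0, 11.8 and 21.4 CPM with +MyoD+F/R/C, 11, 6.05 and 15.6 CPM with +MyoD and 7.12, 3.71 and 4.54 CPM in MEFs. It fell with CP relative to SP (edgeR, log2 fold change -2.19, SE 0.38, adjusted p = 0.026, called in 19 of 24 alternative settings), and its CP libraries overlapped MEFs. Iigp1, an effector that breaks vacuoles, measured 5.64, 12.1 and 6.43 CPM with CP, 43.8, 27.7 and 15.1 CPM with SP, 6.20, 10.3 and 13.6 CPM with +MyoD+F/R/C and 1.06, 1.95 and 5.64 CPM with +MyoD, with 4 pooled counts in MEFs. Gbp2 measured 5.66, 7.89 and 11.6 CPM with CP, 18.1, 16.4 and 9.80 CPM with SP, 10.1, 8.77 and 13.9 CPM with +MyoD+F/R/C, 5.45, 7.13 and 7.06 CPM with +MyoD and 2.31, 1.33 and 1.46 CPM in MEFs. For Gbp2 the conditions with F/R/C overlapped each other, and CP against MEFs was called higher (edgeR, log2 fold change 2.30, SE 0.34, adjusted p = 4.0e-05).

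The Ifitm proteins sit in membranes and block fusion of viruses with the cell, and Ifitm3 and Ifitm2 had more TPM than any other member. Relative to MEFs, all 3 genes rose in +MyoD, in +MyoD+F/R/C and with CP, where 22.8%, 26.6% and 24.9% of all tested genes were called higher. None was called between the F/R/C conditions. Ifitm3 measured 192, 204 and 229 CPM with CP, 370, 392 and 389 CPM with SP, 326, 349 and 363 CPM with +MyoD+F/R/C, 148, 254 and 477 CPM with +MyoD and 47.9, 44.6 and 40.5 CPM in MEFs. The CP libraries lay below both other F/R/C conditions and above MEFs without overlap. Ifitm3 rose with +MyoD (edgeR, log2 fold change 2.72, SE 0.29, adjusted p = 2.2e-06) and with CP (2.23, SE 0.28, adjusted p = 1.1e-05) relative to MEFs.

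Ifitm1 departed from the order of the other members. It measured 18.8, 21.4 and 20.2 CPM with CP, 24.4, 29.9 and 26.8 CPM with SP, 51.7, 77.0 and 49.2 CPM with +MyoD+F/R/C, 3.85, 14.2 and 48.2 CPM with +MyoD and 0.890, 0.340 and 0.0878 CPM in MEFs. Both inhibitor groups lay below +MyoD+F/R/C with no overlap, at log2 fold changes of -1.13 for SP and -1.56 for CP, neither of which was called (edgeR, adjusted p = 0.76 and 0.51). It rose with CP relative to MEFs (5.49, SE 0.79, adjusted p = 3.4e-05). Ifitm2 measured 218, 224 and 209 CPM with CP, 237, 263 and 253 CPM with SP, 292, 358 and 269 CPM with +MyoD+F/R/C, 158, 281 and 336 CPM with +MyoD and 102, 87.2 and 95.1 CPM in MEFs, and it too was lower with either inhibitor than in any +MyoD+F/R/C library.

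The Parp group pairs Parp9 with its partner Dtx3l, a ubiquitin ligase, and includes Parp14, which transfers single ADP-ribose units to proteins. Against MEFs, all 3 were called higher in +MyoD, in +MyoD+F/R/C and with CP, as were 22.8%, 26.6% and 24.9% of all tested genes. All 3 were lower with CP than with SP (0.197% of all genes). Parp14 measured 3.07, 3.63 and 2.82 CPM with CP, 29.0, 19.4 and 13.7 CPM with SP, 11.4, 7.26 and 7.66 CPM with +MyoD+F/R/C, 3.29, 2.62 and 5.99 CPM with +MyoD and 1.17, 0.651 and 0.732 CPM in MEFs. The CP libraries lay below every +MyoD+F/R/C library and above every MEFs library. Parp14 fell with CP relative to SP (edgeR, log2 fold change -2.70, SE 0.37, adjusted p = 0.0038, called in 24 of 24 alternative settings) and rose with +MyoD relative to MEFs (2.22, SE 0.38, adjusted p = 0.00019).

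Dtx3l measured 4.25, 5.89 and 5.45 CPM with CP, 25, 15.8 and 16.5 CPM with SP, 11.6, 9.46 and 7.55 CPM with +MyoD+F/R/C, 3.82, 5.12 and 6.02 CPM with +MyoD and 3.11, 2.10 and 2.14 CPM in MEFs. It fell with CP relative to SP (edgeR, log2 fold change -1.88, SE 0.27, adjusted p = 0.0061) and rose with +MyoD+F/R/C relative to +MyoD (0.93, SE 0.27, adjusted p = 0.021). Parp9 fell with CP relative to SP by 1.84 on the log2 scale (adjusted p = 0.032), a call lost with the line as a block (adjusted p = 0.052, in a range of 1.7e-05 to 0.26). Parp9 and Dtx3l overlap on opposite strands. The library kit was stranded, but whether kallisto used the strand is not stated, so reads in the shared part are uncertain.

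The ISG15 system attaches a ubiquitin-like protein to others. Isg15 is that modifier, Herc6 its main ligase in mice, Trim25 a ubiquitin ligase of the RNA sensor RIG-I, and Usp18 removes ISG15 and also restrains the interferon receptor. Isg15 measured 0.495, 0.0526 and 0.570 CPM with CP and 28.5, 21.9 and 17.1 CPM with SP. It measured 3.50, 2.30 and 6.98 CPM with +MyoD+F/R/C, 0.595, 2.07 and 2.67 CPM with +MyoD and 1.17, 0.850 and 0.351 CPM in MEFs. The CP libraries were below every SP and +MyoD+F/R/C library and overlapped MEFs. Isg15 fell with CP relative to SP (edgeR, log2 fold change -5.91, SE 0.75, adjusted p = 0.0023, called in 24 of 24 alternative settings) and rose with +MyoD+F/R/C relative to MEFs (2.43, SE 0.65, adjusted p = 0.0053). With CP against MEFs its log2 fold change was -1.09, with a 95% interval of -2.58 to 0.40.

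Usp18 measured 1.96, 1.47 and 1.84 CPM with CP, 24.0, 19.1 and 17.8 CPM with SP, 6.66, 5.28 and 8.25 CPM with +MyoD+F/R/C, 0.501, 1.22 and 2.94 CPM with +MyoD and 0.667, 0.170 and 0.0878 CPM in MEFs. The 3 F/R/C conditions did not overlap each other, and CP lay above MEFs. Usp18 fell with CP relative to SP (edgeR, log2 fold change -3.53, SE 0.58, adjusted p = 0.018) and rose with CP (2.49, SE 0.62, adjusted p = 0.0035) and with +MyoD (2.31, SE 0.62, adjusted p = 0.0065) relative to MEFs. Herc6 measured 1.30, 0.868 and 1.65 CPM with CP, 7.85, 3.02 and 3.60 CPM with SP, 2.85, 3.34 and 3.28 CPM with +MyoD+F/R/C, 1.53, 2.30 and 3.80 CPM with +MyoD and 4.12, 3.82 and 3.04 CPM in MEFs. Herc6 fell with CP relative to MEFs (log2 fold change -1.53, SE 0.42, adjusted p = 0.0072 in edgeR). Trim25 measured 73.0 to 78.5 CPM with CP, 128 to 148 CPM with SP, 114 to 120 CPM with +MyoD+F/R/C, 49.6 to 94.9 CPM with +MyoD and 48.9 to 76.3 CPM in MEFs, and it rose with +MyoD+F/R/C relative to MEFs (1.0, SE 0.20, adjusted p = 0.00067).

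Among the antiviral enzymes and membrane proteins, Bst2 and Samd9l were called lower with CP than with SP, and Rsad2 and Cmpk2 were not. Bst2, or tetherin, which holds budding virus on the cell, measured 7.22, 8.92 and 8.43 CPM with CP, 51.1, 46.8 and 41.3 CPM with SP, 14.8, 15.4 and 14.8 CPM with +MyoD+F/R/C, 3.38, 26.7 and 16.4 CPM with +MyoD and 5.59, 6.06 and 5.09 CPM in MEFs. The 3 F/R/C conditions were apart, and the +MyoD libraries spanned all but SP. Bst2 fell with CP relative to SP (edgeR, log2 fold change -2.50, SE 0.45, adjusted p = 0.033, called in 14 of 24 alternative settings). Its promoter stretch, printed above, holds both ISRE-type and GAS-type letters, which were not tested as binding sites.

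Samd9l, a cytoplasmic protein that slows growth and translation, was the 1 member lower with +MyoD+F/R/C than with +MyoD. It measured 0.873, 1.55 and 0.856 CPM with CP, 10.9, 4.65 and 5.24 CPM with SP, 1.5, 1.14 and 2.03 CPM with +MyoD+F/R/C, 3.07, 4.92 and 4.12 CPM with +MyoD and 1.28, 1.53 and 0.995 CPM in MEFs. The fall with +MyoD+F/R/C relative to +MyoD was -1.37 on the log2 scale (edgeR, SE 0.40, adjusted p = 0.023), and it was not called without line 1 or line 2 of +MyoD+F/R/C or without line 2 of +MyoD (adjusted p over its alternatives 0.0066 to 0.31). Samd9l fell with CP relative to SP (-2.66, SE 0.42, adjusted p = 0.013). Cmpk2, a mitochondrial nucleotide kinase, measured 1.91, 0.466 and 5.31 CPM with +MyoD and 0.111, 0.0849 and 0.146 CPM in MEFs, and it rose with +MyoD (log2 fold change 4.45, SE 0.88, adjusted p = 0.00066 in edgeR). Rsad2, or viperin, which makes a chain-terminating nucleotide, was not called in any comparison. It measured 1.63, 0.342 and 1.27 CPM with CP, 11.7, 5.36 and 4.15 CPM with SP and 1.92, 1.16 and 1.68 CPM with +MyoD+F/R/C.

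Of the other effectors, Ifi35, Rtp4, Xaf1 and Lgals3bp were called lower with CP than with SP. Rtp4, a chaperone of membrane receptors that is induced by interferon, measured 0.566, 0.132 and 0.570 CPM with CP, 24.9, 13.6 and 13.0 CPM with SP, 3.21, 2.10 and 3.81 CPM with +MyoD+F/R/C, 0.721, 1.95 and 1.57 CPM with +MyoD and 0, 0.198 and 0.117 CPM in MEFs. The SP, +MyoD+F/R/C and CP libraries did not overlap. Rtp4 fell with CP relative to SP (edgeR, log2 fold change -5.34, SE 0.67, adjusted p = 0.0021, called in 24 of 24 alternative settings) and rose with +MyoD relative to MEFs (3.72, SE 0.72, adjusted p = 0.00057). Its call with CP against MEFs (1.98, adjusted p = 0.039) was lost with the line as a block (adjusted p = 0.059, in a range of 0.0076 to 0.13).

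Lgals3bp, a secreted glycoprotein that binds galectins, measured 72.9, 74.8 and 64.2 CPM with CP, 331, 267 and 275 CPM with SP, 118, 114 and 114 CPM with +MyoD+F/R/C, 33.0, 84.1 and 104 CPM with +MyoD and 5.20, 3.74 and 5.47 CPM in MEFs. The 3 F/R/C conditions were tight and did not overlap. Lgals3bp rose with +MyoD (edgeR, log2 fold change 3.94, SE 0.32, adjusted p = 1.8e-07) and with CP (3.88, SE 0.32, adjusted p = 1.5e-07) relative to MEFs, and fell with CP relative to SP (-2.04, SE 0.29, adjusted p = 0.0045, called in 24 of 24 alternative settings). Xaf1, which binds the apoptosis inhibitor XIAP, measured 1.32, 1.58 and 2.47 CPM with CP, 17.2, 10.4 and 7.93 CPM with SP, 2.57, 2.80 and 4.83 CPM with +MyoD+F/R/C, 0.752, 3.08 and 2.34 CPM with +MyoD and 0.222, 0.227 and 0.381 CPM in MEFs. It fell with CP relative to SP by 2.73 on the log2 scale (edgeR, adjusted p = 0.032). The call for Ifi35 with CP against SP (-1.01, adjusted p = 0.043) was lost with the line as a block (adjusted p = 0.057, in a range of 0.00015 to 0.35).

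Ifi27, a small membrane protein, measured 16.9, 27.9 and 21.6 CPM with CP, 38.3, 57.1 and 51.6 CPM with SP, 31.0, 31.0 and 37.7 CPM with +MyoD+F/R/C, 6.23, 28.4 and 22.8 CPM with +MyoD and 3.09, 3.06 and 3.19 CPM in MEFs. With +MyoD+F/R/C against +MyoD its log2 fold change was 0.80 (edgeR, adjusted p = 0.14), and it became a higher call with the line as a block (0.93, adjusted p = 0.042, in a range of 0.041 to 0.31). Ifi44 measured 0.165, 0.237 and 0.190 CPM with CP, 13.4, 3.57 and 1.54 CPM with SP and 1.40, 0.570 and 2.10 CPM with +MyoD+F/R/C, where line 1 of SP stands far above the other two. Sp100, Epsti1 and Ifi27l2a were not called in any comparison. Ifi27l2a had 2 pooled counts in MEFs against 23 with +MyoD+F/R/C, a ratio of 9.73 with a counting interval of 2.40 to 85.1. The 95% intervals of the Epsti1 fold changes included changes in both directions in all 7 comparisons.

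**Figure D3:**
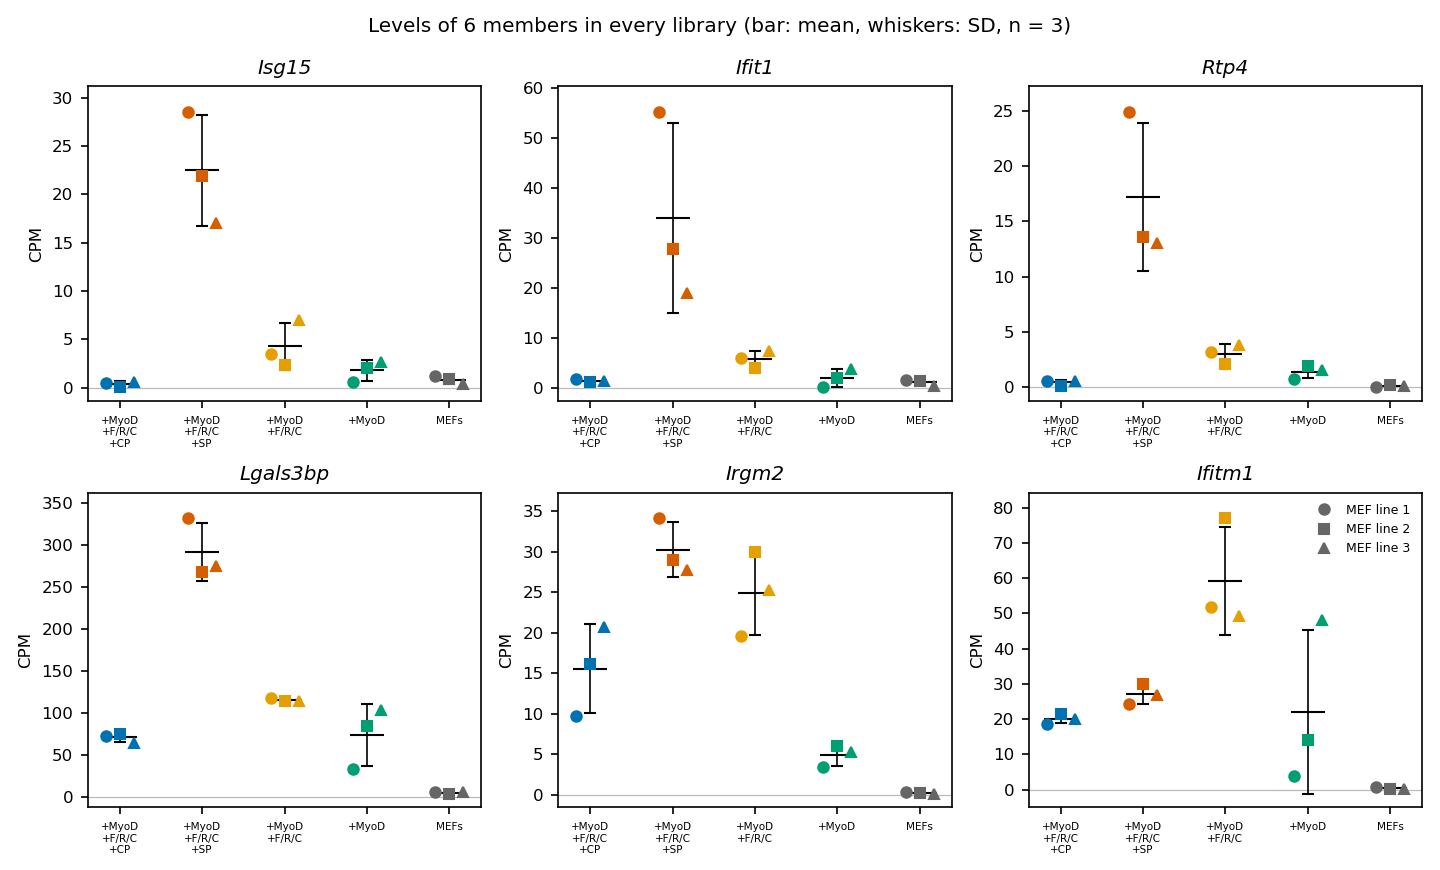
Each panel is 1 gene, with CPM on a linear axis from 0, points for the 3 MEF lines and a bar at the mean of each condition with its SD. Isg15, Ifit1, Rtp4 and Lgals3bp peak with SP and are lower with CP (Isg15 0.0526 to 0.570 CPM) than with SP or +MyoD+F/R/C. Irgm2 is near 0 in MEFs (0.117 to 0.278 CPM), and Ifitm1 peaks with +MyoD+F/R/C.

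The inhibitors ask whether blocking JNK or JAK alters these genes when MyoD and F/R/C are present. With SP against +MyoD+F/R/C, the edgeR fit of 15 libraries called 0 members in either direction, as it called 0% of all 19331 genes. The median log2 fold change of the members was 1.33, against -0.00062 over all genes, and 26 members were higher at an unadjusted p under 0.05 and 0 lower. The SP libraries lay above all +MyoD+F/R/C libraries for 28 members (7.18% of all genes) and below for 2, Ifitm1 and Ifitm2 (6.99%). The smallest adjusted p of a member was 0.35, for Samd9l.

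Other fits of the same counts called some of these members. DESeq2 called 8 higher and 0 lower, where it called 0.263% of all genes higher and 0.0911% lower. A fit of the 9 libraries with F/R/C called 5 higher and 1 lower (0.0975% and 0.0488% of all genes). With the line as a block, these 9 libraries gave 16 higher and 1 lower (1.14% and 1.16%). In that blocked fit Bst2 had a log2 fold change of 1.62 (SE 0.13, adjusted p = 0.00065), Lgals3bp 1.32 (SE 0.094, adjusted p = 0.00035) and Ifitm1 -1.12 (SE 0.12, adjusted p = 0.0044). The fits on 9 libraries with the block were added after the data had been seen. Over all alternatives the adjusted p ran between 0.00065 and 1 for Bst2, between 0.00035 and 1 for Lgals3bp and between 0.0044 and 1 for Ifitm1, so that these calls depended on the fit.

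With CP against +MyoD+F/R/C the fit of 15 libraries again called 0 members higher and 0 lower, where 0% of all genes were called higher and 0.0362% lower. The median log2 fold change was -0.99, against -0.0003 over all genes, and 20 members were lower at an unadjusted p under 0.05 and 0 higher. The 3 CP libraries lay below all +MyoD+F/R/C libraries for 25 members (9.08% of all genes) and above for 0 (7.94%). The smallest adjusted p was 0.10, for Isg15 (log2 fold change -3.52, SE 0.70) and for Oasl2 (-2.64, SE 0.54).

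DESeq2 called 5 members lower and 0 higher (0.69% and 0.419% of all genes), the 9 libraries with F/R/C called 11 and 0 (0.601% and 0.222%), the same 9 with the block 14 and 0 (1.9% and 1.29%), and the 15-library fit without line 1 of +MyoD called 5 lower. In the blocked fit of 9 libraries, Isg15 fell by 3.53 on the log2 scale (edgeR, adjusted p = 0.0039), Usp18 by 1.94 (adjusted p = 0.0011), Rtp4 by 2.92 (adjusted p = 0.0020), Ifitm1 by 1.55 (adjusted p = 0.00044) and Ifitm3 by 0.74 (adjusted p = 0.0013). Over all alternatives the adjusted p reached 0.49 for Isg15, 0.75 for Usp18, 0.50 for Rtp4, 0.95 for Ifitm1 and 0.93 for Ifitm3. Over all alternatives run, 0 members were called higher with CP than with +MyoD+F/R/C.

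Between the F/R/C conditions, calls of members in the 15-library fit came from the direct comparison of the inhibitors alone. With CP against SP, 14 tested members were called lower and 0 higher, where 0.197% of all tested genes were called lower and 0% higher. The members thus made up 14 of the 38 genes called lower in the whole table. These 14 were Ifit1, Oasl2, Irgm1, Parp9, Parp14, Dtx3l, Isg15, Usp18, Bst2, Samd9l, Ifi35, Rtp4, Xaf1 and Lgals3bp. The median log2 fold change was -2.28, against 0.0023 over all genes, the fitted change was below 0 for 39 of 39 tested members, and the CP libraries lay below all SP libraries for 34 (6.31% of all genes) and above for 0 (5.07%).

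Every family except Mx and Ifitm had at least 1 member called lower with CP than with SP. The 14 calls became 26 with DESeq2, which called 0.495% of all genes lower and 0.026% higher. They became 21 in the 9 F/R/C libraries (0.352% lower and 0.0325% higher) and 24 in these with the line as a block (0.78% lower and 0.2% higher), with 0 members higher in each. They fell to 5 without line 1 of CP, 5 without line 1 of SP, 7 without line 2 or line 3 of CP and 9 without line 2 of SP. Isg15, Oasl2, Parp14, Rtp4 and Lgals3bp were called in 24 of 24 alternative settings. SP and CP inhibit different kinases, and each was given in 1 condition.

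**Figure D4:**
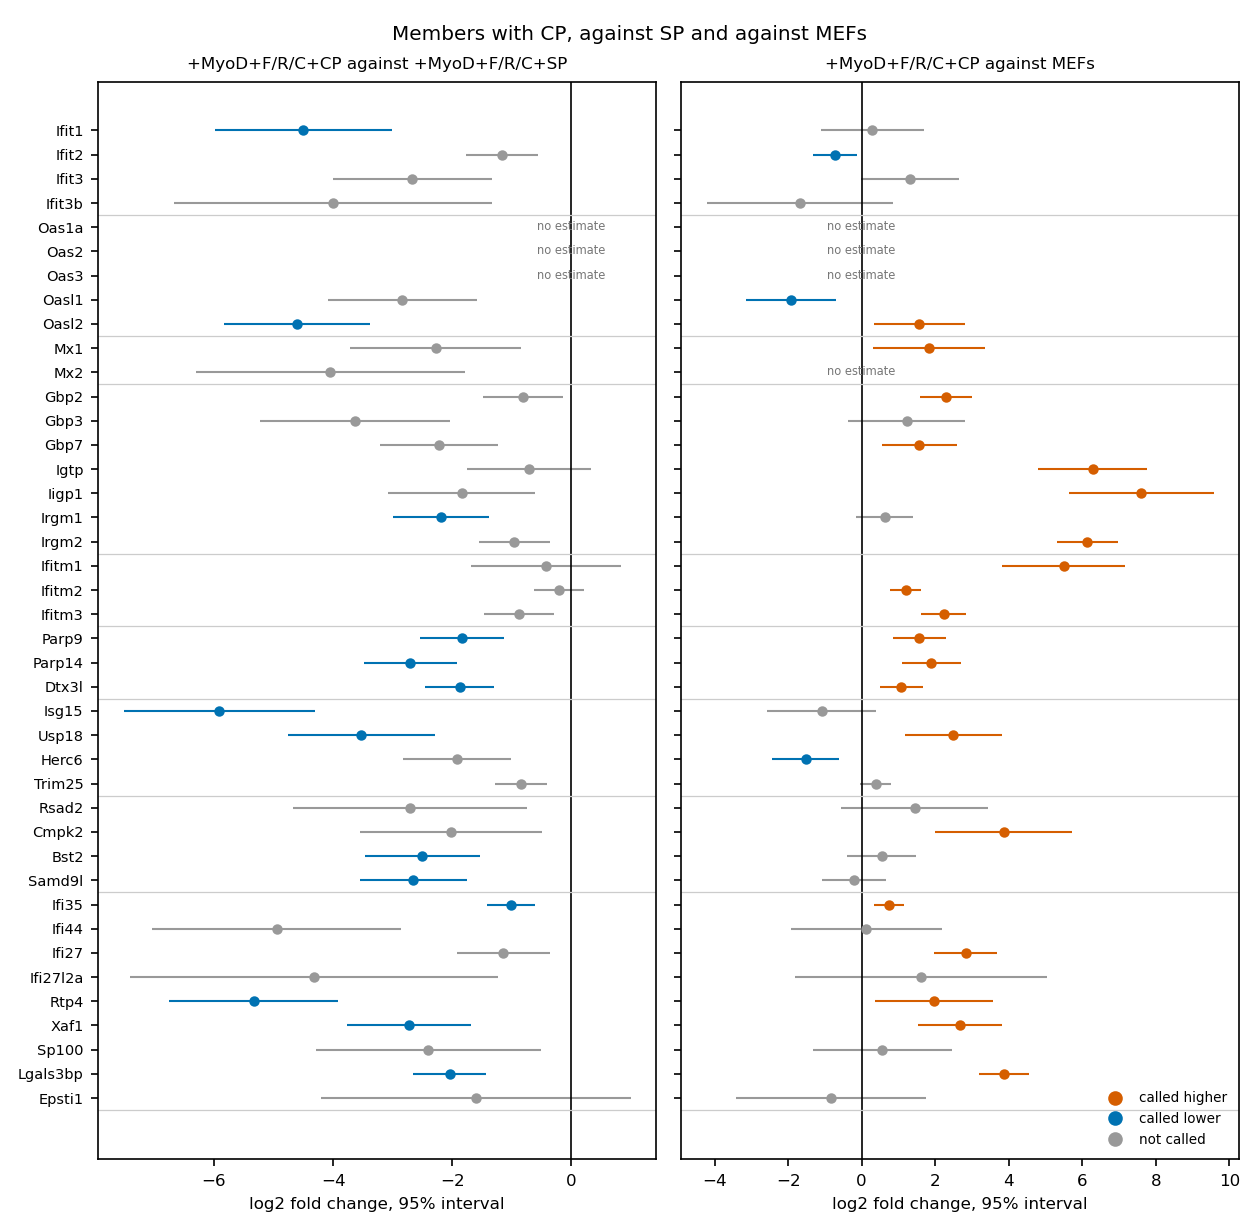
Points are log2 fold changes of 39 tested members from the 15-library edgeR fit with 95% intervals, with CP against SP on the left and CP against MEFs on the right; blue marks called lower, orange called higher and grey not called, and members with 0 counts in a group have no point. Against SP every drawn point lies below 0, with Isg15 at -5.91, and against MEFs Irgm2 lies at 6.14.

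Against MEFs, the CP cultures still had higher levels of many members. With CP, 21 tested members were called higher and 4 lower than in MEFs (24.9% and 20.6% of all genes), with a median log2 fold change of 1.44 against 0.14. The groups were apart upward for 20 members (33.9% of all genes) and downward for 3 (29.8%). By family, the higher calls took in 5 of 7 Gbp/Irg members, 3 of 3 Ifitm, 3 of 3 Parp, 2 of 2 Mx and 5 of 9 other effectors, but 0 of 4 Ifit members. The 4 called lower were Ifit2, Oas1a, Oasl1 and Herc6. Ifit1, Isg15, Bst2 and Samd9l, called lower with CP than with SP, were not called against MEFs, at log2 fold changes of 0.29, -1.09, 0.55 and -0.21, whereas Lgals3bp, Parp14, Dtx3l, Usp18 and Xaf1 were called higher than in MEFs by 3.88, 1.89, 1.08, 2.49 and 2.68 on the log2 scale.

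The genes that carry the interferon signal were read from lists of ligands, receptors, factors, sensors and inhibitors. Interferon ligands were almost absent at this time. Of 21 ligand genes, 14 had 0 counts in all 15 libraries, Ifnb1 among them, and Ifnz alone passed 1 CPM in any library, with a maximum of 1.5 CPM. The receptor gene Ifnar1 ran between 81.0 and 109 CPM in all libraries. Of 6 receptor genes, 3 rose with +MyoD relative to MEFs, where 22.8% of all tested genes were called higher and 18% lower, and 0 were called between the F/R/C conditions in the edgeR fit.

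Several factors between receptor and promoter are known to be induced by interferon themselves. Of 12 JAK, STAT and IRF genes, 7 rose and 1 fell with +MyoD relative to MEFs, against the same 22.8% and 18% of all genes, and Stat2, Irf9 and Irf7 were among those that fell with CP relative to SP. Irf7, the factor that amplifies the type I response, measured 1.72, 2.82 and 1.77 CPM with CP, 33.3, 29.9 and 18.1 CPM with SP, 6.92, 6.56 and 7.98 CPM with +MyoD+F/R/C, 2.54, 5.82 and 5.16 CPM with +MyoD and 1.08, 1.33 and 1.14 CPM in MEFs. It fell with CP relative to SP by 3.69 on the log2 scale (edgeR, adjusted p = 0.00035). Jak2, one of the kinases that CP inhibits, fell with CP relative to +MyoD+F/R/C by 0.98 on the log2 scale (edgeR, adjusted p = 0.028).

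Of 12 RNA and DNA sensors and their partners, Trim25 among them, 5 fell with CP relative to SP in the edgeR fit: Ddx58, which encodes RIG-I, by 1.90 (adjusted p = 0.0018), Ifih1, which encodes MDA5, by 1.75 (adjusted p = 0.029), Zbp1 by 4.04 (adjusted p = 0.028), Eif2ak2, which encodes PKR, by 1.30 (adjusted p = 0.0077) and Adar by 0.87 (adjusted p = 0.028), all on the log2 scale. Of 10 feedback inhibitors, the 2 that fell with CP relative to SP were Usp18 and Isg15, which are members of the effector list. The other 8, Socs1 and Socs3 among them, were not called in that comparison. Over all tested genes, 0.197% were called lower and 0% higher with CP than with SP.

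**Figure D5:**
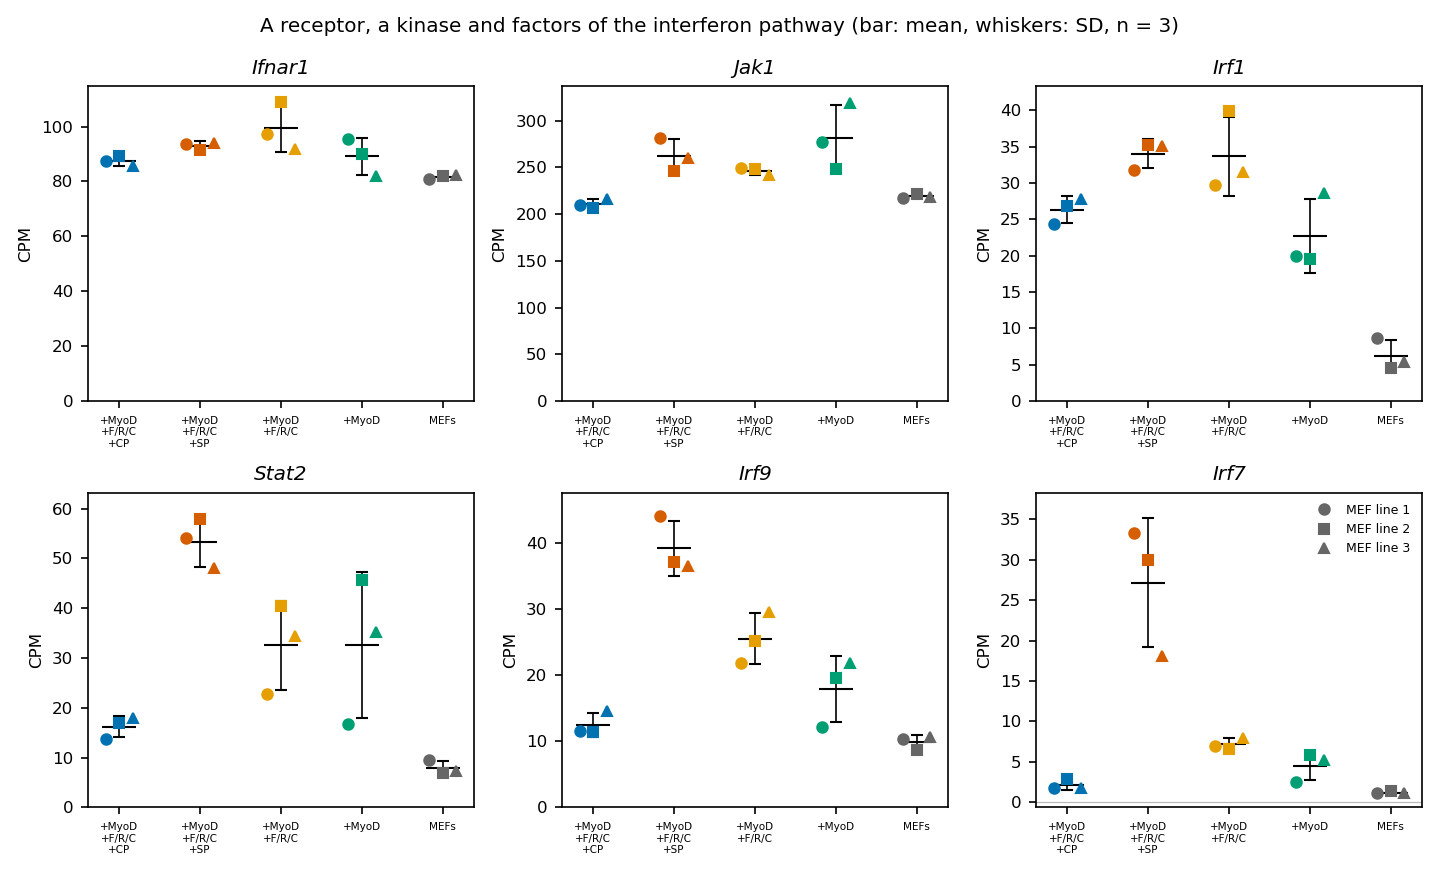
Each panel is 1 gene of the interferon pathway outside the effector list, with CPM on a linear axis from 0, points for the 3 MEF lines and a bar at the mean of each condition with its SD. Irf7, Stat2 and Irf9 have their highest means with SP, and Ifnar1 stays between 81.0 and 109 CPM in all 15 libraries.

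Markers of other cells were measured beside these genes. Macrophage and leukocyte markers (10 genes) summed to 16.9 to 27.3 CPM with CP, 14.0 to 15.3 CPM with SP, 11.6 to 15.1 CPM with +MyoD+F/R/C, 14.8 to 27.3 CPM with +MyoD and 21.7 to 31.6 CPM in MEFs. The leukocyte gene Ptprc did not pass 0.96 CPM in any library. The sums with SP all lay below those in MEFs. Endothelial markers (6 genes) summed to 17 to 24.2 CPM with CP, 9.50 to 18.5 CPM with SP, 9.19 to 18.8 CPM with +MyoD+F/R/C, 6.48 to 20.4 CPM with +MyoD and 9.70 to 14.6 CPM in MEFs. Epithelial markers (6 genes) summed to 30.3 to 40.2 CPM with CP, 16.1 to 43.4 CPM with SP, 15.1 to 27.8 CPM with +MyoD+F/R/C, 18.5 to 35.7 CPM with +MyoD and 80.8 to 95.4 CPM in MEFs. The epithelial sums in MEFs lay above those of every other condition, and Krt8 and Krt18 were called lower than in MEFs in each of the 3 comparisons with MEFs. The markers did not all move this way. With CP against MEFs, 1 of the 4 tested was called higher and 2 lower (24.9% and 20.6% of all tested genes). Cdh1 measured 6.79, 2.21 and 1.14 CPM with CP and 0.250, 0.227 and 0.410 CPM in MEFs. Skeletal muscle, fibroblast and epithelial markers moved with the comparisons against MEFs, as given above. The part of any of these cell types, leukocytes and endothelial cells included, in the members' levels was not tested.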

How the data were processed

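Poly-A RNA of 15 cultures, 3 MEF lines in each of 5 conditions, was made into stranded libraries and sequenced with single-end reads. Conditions and lines were taken from the labels. The authors' processing notes name bcl2fastq 2.20, fastp 0.20.0 and kallisto 0.46.1 with GRCm38.p6, and the authors tested with DESeq2. The deposited files hold estimated counts per transcript, in which kallisto divides reads shared by transcripts and applies no normalization, and TPM values, for which kallisto as run by the authors corrects for effective length and gives each library the same sum. The 41 members and all gene lists were chosen with earlier results of these data known.

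Of 121843 transcripts, 121104 matched the annotation by identifier and were summed to 35675 genes; the rest held 0.236 to 0.327% of a library and were left out, and 0 sample columns were left unused. Estimated counts were rounded before testing. Genes were kept by the edgeR filter (minimum count 10, minimum total 15), which left 19331. The test was edgeR 4.0.16 (quasi-likelihood, TMM) in R 4.3.3 on all 15 libraries with condition as the only factor, 10 residual degrees of freedom, 5.00 prior ones at the median, and a common biological coefficient of variation of 0.35. Calls needed a Benjamini-Hochberg adjusted p of at most 0.05 and a log2 fold change over 0.5 in size. The script was tested on simulated data. Depth was 29393872 to 41885769 counts per library. Bounds and counting intervals cover counting error only, with 3 pooled counts as the most that a count of 0 allows and a confidence level of 95%. CPM in figures was offset by 0.1 on the log2 scale.

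The replicate numbers name MEF lines from separate embryos, each used in all 5 conditions, so same-numbered libraries are paired. Over all tested genes, their deviations from the group means correlated at a mean r of 0.0737 over 30 same-line pairs, against -0.0368 over 60 pairs of different lines. By that measure each of the 15 libraries resembled its own line most. Over the members alone the mean r was 0.0020 for same-line pairs (range -0.50 to 0.44) and -0.00049 for different lines (-0.61 to 0.54). The fit without the line was kept as the design, and the blocked fit was an alternative. Full statistics were given, per comparison, for the tested member with the smallest p in each family, members called against the majority, the 3 members with the highest and the 3 tested members with the lowest mean TPM, and members that were not tested. Values of the other members were added after they had been seen, as were the examples among the 11 lists of pathway, relative and marker genes. Ligands, receptors, factors, sensors, feedback inhibitors and markers were read as counts of calls with no set test. Reads of close paralogs (Ifit3 and Ifit3b, the Oas genes, Ifitm1 to Ifitm3, Gbp3 and Gbp7, Irgm1, Irgm2 and Igtp) are uncertain where kallisto had to divide them.

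Alternatives were DESeq2 1.42.0, edgeR with RLE in place of TMM scaling, no filter on low counts and counts made from TPM by length scaling. Others were the MEF line as a block, the 6 libraries of each pair, the 9 libraries with F/R/C, the 6 and the 9 with the block, and each library left out in turn. Tables and plots were made in Python 3.11.15 with scipy 1.17.1, pandas 2.3.3, matplotlib 3.10.9 and numpy 2.4.6. Promoter sequences are from RefSeq on GRCm38.p6. The authors' own differential tables were not used, and 1 gene of the pathway lists is not reported here.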

Additional observations from a re-analysis of the deposited data

How the results depend on the processing

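The line as a block in the 15-library fit gave 1 member lower with +MyoD+F/R/C than in MEFs (Ifit2), and beside the single calls given with their blocked values it changed no other call of the members. No filter on low counts, the 6 libraries compared and these 6 with the block also gave 1 there. With +MyoD+F/R/C against +MyoD, the 9 higher and 1 lower calls became 5 and 0 with length-scaled counts, 2 and 0 in the 6 libraries and 5 and 0 in these with the block. With SP against +MyoD+F/R/C, higher calls were 8 with DESeq2, 2 in 6 libraries, 5 in 9, 12 in 6 with the block and 16 in 9 with the block, and the last 3 fits each called 1 lower. With CP against +MyoD+F/R/C, lower calls were 3 without the filter, 5 with DESeq2, 6 in 6 libraries, 11 in 9, 12 in 6 with the block and 14 in 9 with the block. With CP against SP they were 26 with DESeq2, 28 in 6 libraries with the block and 24 in 9 with the block, and length-scaled counts left 2 lower with CP than in MEFs. Calls over all tested genes moved too. In the 6 libraries with the block, SP against +MyoD+F/R/C had 92 higher and 87 lower of 17611 genes. CP against +MyoD+F/R/C had 173 higher and 249 lower of 17672 there, and 19 higher and 72 lower without the block. CP against SP had 60 higher and 177 lower of 17425 with the block. With +MyoD+F/R/C against +MyoD, the 6 libraries gave 1246 higher and 964 lower of 17265. The cause of these shifts was not tested.

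With each library left out in turn, higher and lower calls ran from 20 to 29 and 1 to 4 for +MyoD against MEFs, 4 to 14 and 0 to 1 for +MyoD+F/R/C against +MyoD, 27 to 30 and 0 to 1 for +MyoD+F/R/C against MEFs, and 18 to 21 and 2 to 4 for CP against MEFs. Without line 1 of +MyoD, SP against +MyoD+F/R/C had 2 higher calls (range 0 to 2) and CP against +MyoD+F/R/C 5 lower calls (range 0 to 5). Of the 20287 genes tested without it, 6 were called higher and 0 lower for SP, and 19 higher and 60 lower for CP. Lower calls with CP against SP ran from 5 to 19. Lower calls against MEFs with CP were 2 without line 1 or line 2 of MEFs and 2 without line 2 or line 3 of CP.

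Of 273 pairs of a tested member and a comparison, 24 had fold changes of both signs over the alternatives run, and 0 of these were called. Among the 98 pairs chosen for full statistics, those that turned sign were Epsti1 with +MyoD against MEFs (-0.73 to 0.037 with libraries left out, turning without line 2 of +MyoD) and with +MyoD+F/R/C against MEFs (-0.13 to 0.50, turning without line 1 of +MyoD+F/R/C or line 2 of MEFs), and, with +MyoD+F/R/C against +MyoD, Mx2 (-0.11 with length-scaled counts), Ifitm3 (-0.078 to 0.78) and Ifitm2 (-0.010 to 0.48), the last pair turning without line 1 of +MyoD. Leaving line 1 of +MyoD+F/R/C out left Oas1a no counts against +MyoD or CP, so no value was made. Of 2218 values of these 98 pairs under up to 24 alternatives, 2058 kept their direction and side of the threshold, 86 passed it newly, 68 no longer passed it and 6 turned sign.

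With 3 lines in each condition and 1 time point, p-values measure the spread between these lines. Members under about 1 CPM, Oas1a, Oas2, Oas3, Mx1, Mx2, Epsti1 and Ifi27l2a among them, rest on few counts.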

Other observations

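Relatives of the members outside the list of 41 gave further values. Of 31 relatives found, 26 were tested, and the edgeR fit called 11 higher and 2 lower with CP than in MEFs, 12 higher and 2 lower with +MyoD+F/R/C than in MEFs, 7 higher and 2 lower in the comparison of +MyoD with MEFs and 7 higher and 1 lower with +MyoD+F/R/C than with +MyoD. Over all tested genes the shares called higher and lower were 24.9% and 20.6%, 26.6% and 21.6%, 22.8% and 18%, and 10.9% and 8.39% in these comparisons. None of the 26 was called with SP or with CP against +MyoD+F/R/C in that fit. Gbp6, a further guanylate-binding protein, measured 10.8, 8.45 and 22.8 CPM with CP, 35.3, 27.1 and 24.1 CPM with SP, 10.6, 24.0 and 21.6 CPM with +MyoD+F/R/C, 0, 1.51 and 5.52 CPM with +MyoD and 0, 0 and 0.0585 CPM in MEFs. Its CP libraries lay above every +MyoD and MEFs library.

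Parp10 and Zc3hav1, which encodes the zinc-finger antiviral protein ZAP, were the 2 relatives called lower with CP than with SP (edgeR, log2 fold changes -1.18 and -1.04, adjusted p = 0.023 and 0.026). In that comparison 0.197% of all tested genes were called lower and 0% higher. The 2 relatives moved apart against MEFs. Parp10 was higher with CP (3.32, adjusted p = 1.9e-08) and with +MyoD (2.34, adjusted p = 6.3e-07) than in MEFs, and Zc3hav1 was lower with CP (-1.56, adjusted p = 4.6e-06) and with +MyoD (-1.73, adjusted p = 2.0e-06). The RNA editor Adar was also lower with CP (-1.38, adjusted p = 3.1e-06) than in MEFs.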
